A study of Mus musculus and Homo sapiens with 4 samples.

Results

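The kallikreins are a family of secreted serine proteases, and 10 of their genes were described here in the RNA sequencing of 2 human cell cultures: KLK1, KLK2, KLK3, KLK4, KLK5, KLK6, KLK7, KLK8, KLK10 and KLK11. The members were found in the files by gene symbol, and the set was chosen with earlier results of these data known. Each of the 10 symbols stood on 1 of the 25932 entries of the deposited values, and all 10 were kept. VCaP is a prostate cancer cell line established from a metastasis, which carries the androgen receptor and the TMPRSS2-ERG fusion. VCaP ERα is labelled as the same line overexpressing oestrogen receptor alpha (ERα), and the study describes the overexpression as stable. Both cultures were grown in DMEM with fetal bovine serum, and the labels name no hormone treatment for either. Each was sequenced once from total RNA after removal of ribosomal RNA, with the strand of the transcripts kept, so that 1 library stands for each culture. Differences between the libraries therefore lack a replicate check, and P-values are not given.

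Kallikreins are made as inactive precursors and are activated by cleavage, in part by one another. In the human genome they lie side by side in a single cluster on chromosome 19. The prostate epithelium is known for KLK2, KLK3 and KLK4, of which KLK2 and KLK3 are textbook androgen-regulated genes and are secreted into seminal fluid. Others of the family are better known from the skin, the brain, the salivary gland or tumours of the breast and ovary.

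Values are RPKM (reads per kilobase of an entry and per unit of sequencing depth) as deposited. The log2 ratio is that of VCaP ERα over VCaP after 1 was added to each RPKM value, and understates the difference of low entries. A log2 ratio above 2 or below -2 is called here, without a test. ESR1, the gene of ERα, had 15.7 RPKM in VCaP against 209 RPKM in VCaP ERα (log2 ratio 3.65), higher in the culture labelled as overexpressing it. The library labelled VCaP went against its label in other genes, and VCaP names it here by that label alone. Of 12 genes of prostate luminal cells, 10 had a log2 ratio above 2 and none was below -2. The median of the 12 was 1.96 RPKM in VCaP (range 0 to 87.0) against 137 RPKM in VCaP ERα (from 0.998 to 694). Their sums were 114 and 1991 RPKM. FOLH1, the prostate-specific membrane antigen gene, was listed at 0 in VCaP and had 3.16 RPKM in VCaP ERα. The 2 genes not called were SPDEF, with 87.0 RPKM in VCaP against 192 RPKM in VCaP ERα, and MSMB. MSMB went the other way, with 5.46 RPKM in VCaP against 0.998 RPKM in VCaP ERα, and was below -2 where 0.1 in place of 1 was added. The homeobox gene HOXB13, another of these 12 genes, had 0.0479 RPKM in the library labelled VCaP, against 54.6 RPKM in VCaP ERα. Of 12 genes of luminal breast cells, 6 were below -2 and 1 was above 2, with a range of 0 to 1625 RPKM in VCaP and of 0.0297 to 727 RPKM in VCaP ERα and sums of 4430 and 951 RPKM. Of 10 genes of squamous and basal epithelium, 6 were below -2 and none was above 2, with a range of 0 to 336 RPKM in VCaP and of 0 to 1.19 RPKM in VCaP ERα and sums of 424 and 3.47 RPKM. CALML5 alone had 336 RPKM in VCaP. Of these 10 genes, 7 were lower in VCaP ERα and 3 were higher. The higher ones included the keratin genes KRT5 and KRT14, with 0.0259 and 0 RPKM in VCaP against 0.623 and 1.19 RPKM in VCaP ERα. Over all entries, 2.27% were above 2 and 6.56% were below -2. After centring, that is, with the median of entries at 1 RPKM or more in each library set to 0, the prostate count above 2 was still 10, whereas 5 breast genes and 4 squamous or basal genes were below -2. The shares over all entries were then 4.77% above 2 and 3.35% below -2. The oestrogen receptor and all that differs between the cultures cannot be told apart, and the part of these marker differences in the kallikrein values was not tested.

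The 2 libraries held different kallikreins. KLK2, KLK3 and KLK4 had log2 ratios above 2, KLK6 and KLK11 had log2 ratios below -2, and the other 5 lay in between. In all entries the share above 2 was 2.27% (588 of 25932) and the share below -2 was 6.56% (1701 of 25932). That split depended on scaling: 1238 entries were above 2 and 868 below -2 after centring on the median of expressed entries, and 996 and 997 after quantile normalization, whereas the members called were 3 and 2 under each of these. The median log2 ratio of the 10 members was 0.20, beside 0 over all entries and -0.59 over the 9754 entries that reached 1 RPKM in each library. In bulk RNA, fewer cells of a type and less RNA per cell cannot be told apart.

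**Figure D1:**
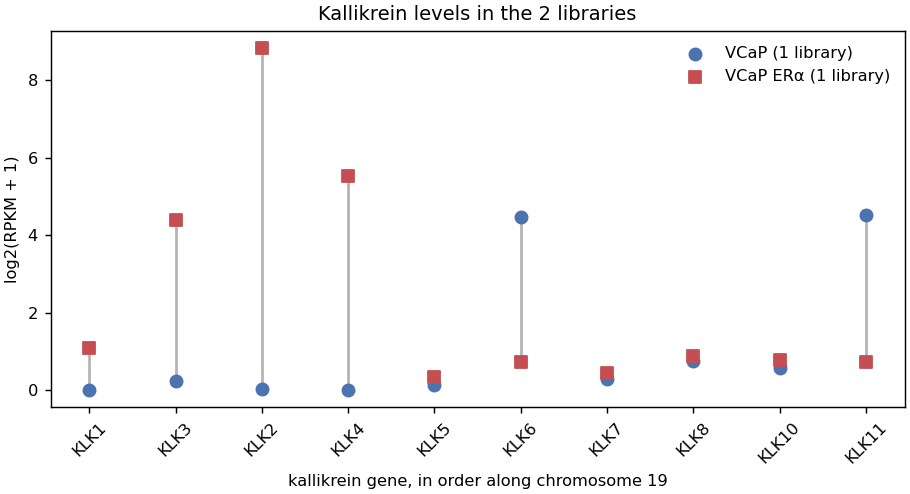
Level of each of the 10 kallikreins as log2(RPKM + 1) in the VCaP library (circles) and the VCaP ERα library (squares), in their order along chromosome 19; grey lines join the 2 values of a gene, and there is 1 library per culture and no error bar. KLK3, KLK2 and KLK4 are near 0 in VCaP and high in VCaP ERα, while KLK6 and KLK11 are the 2 members that are high in VCaP and below 1 RPKM in VCaP ERα.

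KLK2, whose product (glandular kallikrein) can activate the KLK3 precursor, had 0.0264 RPKM in VCaP against 452 RPKM in VCaP ERα (log2 ratio 8.79). It ranked 48 of all 25932 entries by its level in VCaP ERα and 16819 by its level in VCaP. KLK3, the gene of prostate-specific antigen, had 0.176 RPKM in VCaP against 19.8 RPKM in VCaP ERα (log2 ratio 4.14). KLK4, known for its part in enamel maturation besides its expression in the prostate, was listed at 0 in VCaP and had 45.2 RPKM in VCaP ERα. All 3 genes were thus near or at 0 in the library labelled VCaP and above 94.0% to 99.8% of all entries in VCaP ERα, where KLK3 was the lowest of the 3. Within VCaP ERα the level of KLK2 was 22.8 times that of KLK3 and 10.0 times that of KLK4, per length of the entry. KLK2 and KLK3 are close paralogs that could share reads, so the split between them is uncertain. How reads with several matches were counted is not given in the sources used here.

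KLK6 and KLK11 showed the opposite direction. KLK6 (neurosin), a protease best known from the nervous system and also from breast and ovarian tumours, had 21.2 RPKM in VCaP against 0.655 RPKM in VCaP ERα (log2 ratio -3.75). KLK11 (hippostasin), described in brain, prostate and other epithelia, had 21.9 RPKM in VCaP against 0.653 RPKM in VCaP ERα (log2 ratio -3.79). The values in VCaP were 32.4 times and 33.5 times those in VCaP ERα. The levels of these 2 genes were alike within each library, with a ratio of KLK11 to KLK6 of 1.03 in VCaP and of 0.997 in VCaP ERα, and with no replicate their order cannot be given. In VCaP they stood above 90.6% and 90.8% of all entries, and in VCaP ERα above 45.6% and 45.5%.

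Of the remaining members, KLK1, the tissue kallikrein that releases kinins from kininogen, was listed at 0 in VCaP and had 1.13 RPKM in VCaP ERα. It passed the threshold only where 0.1 in place of 1 was added to each value, with 4 members then above 2 against 16.3% of all entries. KLK5 and KLK7, which cleave the adhesion proteins of the outer skin, had 0.0931 and 0.219 RPKM in VCaP against 0.262 and 0.348 RPKM in VCaP ERα. KLK8 (neuropsin), known from the hippocampus and the skin, had 0.678 RPKM in VCaP against 0.831 RPKM in VCaP ERα. KLK10, first described as a gene reduced in breast cancer cells, had 0.487 RPKM in VCaP against 0.711 RPKM in VCaP ERα. KLK5, KLK7, KLK8 and KLK10 were therefore below 1 RPKM in both libraries, with log2 ratios from 0.13 to 0.21 that turned negative, from -0.27 to -0.09, after quantile normalization. No direction can be given for these 4 genes.

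**Figure D2:**
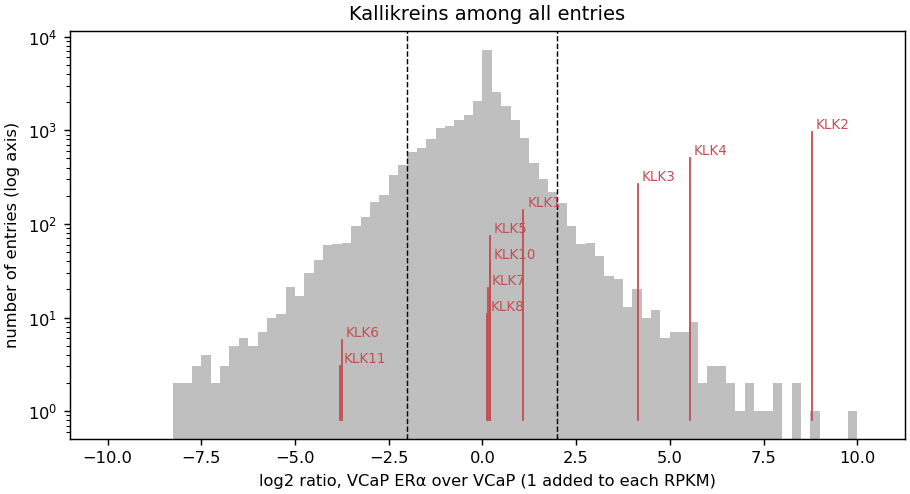
Number of entries (log axis) by log2 ratio of VCaP ERα over VCaP for all 25932 entries in grey, with the 10 kallikreins as red lines whose height serves only to separate the names; dashed lines mark -2 and 2. KLK3, KLK4 and KLK2 lie in the sparse right tail at 4.14, 5.53 and 8.79, KLK6 and KLK11 lie on the left at -3.75 and -3.79, and the other 5 lie between the dashed lines.

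How many sequenced fragments stand behind these values could be judged from steps in the low values. In entries that span less than 3000 bp, RPKM times length in kilobases most often took the values 0.0972 and 0.146 in VCaP and 0.0947 and 0.111 in VCaP ERα. One such unit, taken as 1 counted fragment, was thus worth 1.03 or 1.31 times as much RPKM in VCaP as in VCaP ERα, according to the series; the factors cannot both be the ratio of depths, and which of them applies to a given entry is not known. Dividing RPKM by the unit gives units per kilobase of exon. Most short entries were placed in neither series, so the ranges below are approximate. KLK2 came to between 0.181 and 0.271 units per kilobase in VCaP and to between 4067 and 4776 in VCaP ERα. KLK3 came to between 1.21 and 1.81 units per kilobase in VCaP and to between 178 and 209 in VCaP ERα. KLK6 came to between 146 and 218 units per kilobase in VCaP and to between 5.89 and 6.92 in VCaP ERα. The values of KLK2, KLK3 and KLK5 in VCaP hence rest on very few fragments, and no fold is given for KLK2 and KLK3. KLK5 came to at most 0.958 units per kilobase in VCaP and 2.77 in VCaP ERα, and its difference between the libraries cannot be judged at this depth. With the VCaP ERα values multiplied by either factor, the same numbers of members, 3 above 2 and 2 below -2, were called.

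The make-up of the family within a library does not change where a library is multiplied by 1 factor, though it does under quantile normalization. The 10 members summed to 44.8 RPKM in VCaP and to 522 RPKM in VCaP ERα, 11.7 times as much as deposited. The log2 ratio of the sums, taken without adding 1, was 3.54. It was 3.94 after quantile normalization and 4.13 after centring. In VCaP, KLK11 held 48.9% of the sum and KLK6 held 47.4%, while KLK2, KLK3 and KLK4 together held 0.451%. In VCaP ERα, KLK2 held 86.7%, KLK4 held 8.67% and KLK3 held 3.79%, and KLK6 and KLK11 together held 0.251%. After quantile normalization KLK2 held 84.9%, KLK4 9.88% and KLK3 4.56% in VCaP ERα, and KLK11 held 47.0% and KLK6 45.5% in VCaP. The remaining 5 members held 3.30% of the sum in VCaP and 0.630% in VCaP ERα. Without KLK2 and KLK11, the highest member of each library, the log2 ratio of the sums was 1.59.

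**Figure D3:**
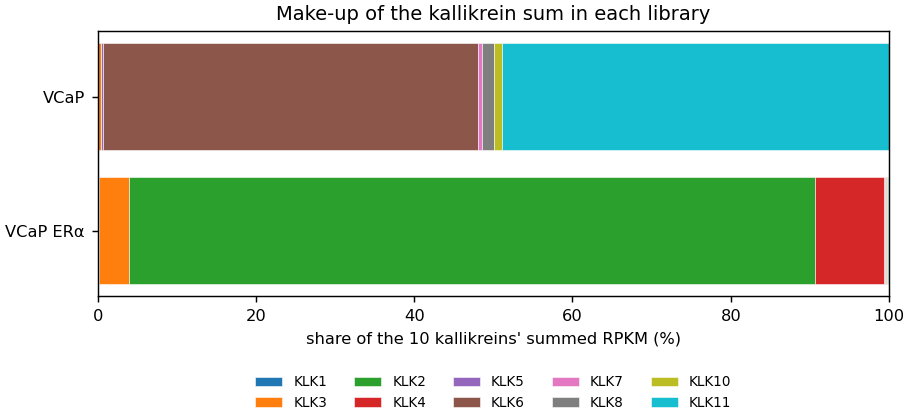
Share of each kallikrein in the summed RPKM of the 10 members, in per cent, for the VCaP library (top bar) and the VCaP ERα library (bottom bar), with 1 library each. KLK6 and KLK11 fill 96.3% of the bar of VCaP, and KLK3, KLK2 and KLK4 fill 99.1% of the bar of VCaP ERα.

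The members called in opposite directions also lay in different stretches of the cluster. In the coordinates of the files, for which the submitters' processing notes name hg18 as the human build, the kallikrein entries of chromosome 19 run from 56014216 (KLK1) to 56279314 (KLK14) and take in 16 entries. The stretch from KLK1 to KLK4 (56014216 to 56105806) holds 6 entries in the order KLK1, KLK15, KLK3, KLK2, KRSP1 and KLK4. The cut after KLK4 was made with earlier results of these data known. In VCaP 4 of the 6 were listed at 0 and the highest had 0.176 RPKM. In VCaP ERα all 6 were higher, from 1.13 to 452 RPKM, also after quantile normalization. An upward direction was not particular to this stretch. Of the 20 entries flanking the cluster, 17 were higher in VCaP ERα, and 14 after quantile normalization. As deposited, 46.6% of all entries and 49.2% of the entries of chromosome 19 were higher in VCaP ERα. KLK15, a protease that can activate KLK3, was listed at 0 in VCaP and had 1.85 RPKM in VCaP ERα. KRSP1, a kallikrein-related sequence between KLK2 and KLK4, was listed at 0 in VCaP and had 4.37 RPKM in VCaP ERα. Its log2 ratio of 2.43 was above 2.

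After a gap of 32565 bp between KLK4 and KLK5, the stretch from KLK5 to KLK14 (56138371 to 56279314) holds 10 entries, all of them between 0.225 and 0.831 RPKM in VCaP ERα. KLK6 (56153699 to 56164741) and KLK11 (56217299 to 56223102) are not adjacent: KLK7, KLK8, KLK9 and KLK10, all below 1 RPKM in VCaP, lie between them. KLK12, the entry next to KLK11, was also lower in VCaP ERα, with 1.39 RPKM in VCaP against 0.463 RPKM in VCaP ERα. KLK9 (0.0734 and 0.438 RPKM in VCaP and VCaP ERα) overlaps KLK8 by 3417 bp, and reads in that overlap could belong to either. KLK13 and KLK14 had 0.134 and 0 RPKM in VCaP against 0.225 and 0.685 RPKM in VCaP ERα. Of 7 further genes listed as kallikreins, 6 had an entry under their symbol and KLKP1 had none. Of these 6, 0 were called in either direction, although KLK15 reached 2.10 after centring. KRSP1, which was above 2, was not in that list by symbol. Whether KRSP1 and KLKP1 are names of 1 locus was not checked, so the count of 0 covers the 6 alone. The 6 included the plasma kallikrein gene KLKB1 on chromosome 4, which is of a different gene family. KLKB1 had 0 RPKM in VCaP against 0.0632 RPKM in VCaP ERα.

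Low values of this size were not particular to kallikreins. The 10 entries beyond KLK14 ranged from 0.178 to 24.1 RPKM in VCaP ERα, among them the leukocyte genes CD33 and SIGLEC9 with 0.377 and 0.558 RPKM, and 7 of these 10 entries were listed at 0 in VCaP. Over all entries, 33.8% were listed at 0 in VCaP and 13.9% in VCaP ERα. Among 373 olfactory receptor entries, genes of the nasal epithelium taken here as a reference for low values after the data had been seen, the 95th percentile was 0 RPKM in VCaP against 0.238 RPKM in VCaP ERα. All 10 kallikreins exceeded it in VCaP ERα, KLK5 by little with 0.262 RPKM. Most entries did so too, as KLK5 stood above only 31.4% of all entries in VCaP ERα. The highest olfactory receptor entry had 1.44 RPKM in VCaP ERα, above all members but KLK2, KLK3 and KLK4. The levels of KLK6 and KLK11 in VCaP ERα were thus above that percentile, below the highest olfactory receptor entry and within the range of the flanking entries. The entry just below KLK1, MGC45922, had 0.104 RPKM in VCaP against 0.388 RPKM in VCaP ERα, and the one just above KLK14, ATPBD3, had 2.60 and 0.348 RPKM.

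**Figure D4:**
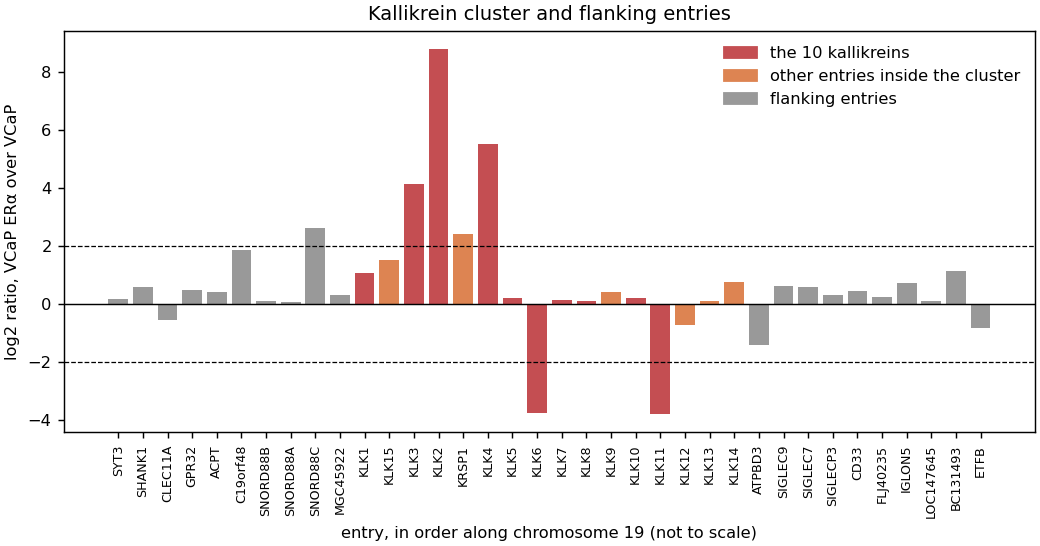
Log2 ratio of VCaP ERα over VCaP for the 16 entries of the kallikrein cluster and the 10 entries on either side, in their order along chromosome 19 (not to scale); red bars are the 10 members, orange bars other entries of the cluster, grey bars flanking entries, and dashed lines mark -2 and 2. The 6 entries from KLK1 to KLK4 point upward, as do 17 of the 20 flanking entries. KLK6 and KLK11 point below -2 with near-0 bars between them, and the sign of KLK5, KLK7, KLK8 and KLK10 changes with quantile normalization.

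Proteases of this family are held in check by inhibitors in the tissue fluid. Of 10 inhibitors that act on kallikreins or related trypsin-like proteases, 4 had log2 ratios below -2 and none was above 2, with a median of -0.77. Over all entries 6.56% were below -2 and 2.27% above 2, and after centring, which left 4 inhibitors below -2, these shares were 3.35% and 4.77%. SERPINA3, the antichymotrypsin that binds prostate-specific antigen in blood, had 293 RPKM in VCaP against 0.716 RPKM in VCaP ERα (log2 ratio -7.42). SERPINA5, the protein C inhibitor of seminal fluid, had 12.9 RPKM in VCaP against 0.537 RPKM in VCaP ERα. The entries of SERPINA3 and SERPINA5 overlap, and reads in the overlap could belong to either, so their calls may not be separate. SPINT1, a Kunitz-type inhibitor of the cell surface, had 69.5 RPKM in VCaP against 8.92 RPKM in VCaP ERα, and its relative SPINT2 had 300.03 and 102.0 RPKM (log2 ratio -1.55). SERPINA1, an inhibitor made mainly in the liver, had 12.5 RPKM in VCaP against 1.10 RPKM in VCaP ERα. Over the whole list, 5 inhibitors were lower in VCaP ERα, 3 were higher and 2 were listed at 0 in both libraries. The 3 higher ones had less than 1 RPKM in each library: SERPINA4 (0 and 0.881 RPKM), SPINK5, the inhibitor of skin kallikreins (0.237 and 0.406 RPKM), and A2M (0 and 0.0433 RPKM). After quantile normalization 1 inhibitor was higher and 9 were lower. Those 9 include the 2 listed at 0 in both libraries, whose tied zeros took a different mean in each library.

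Of 15 known or proposed substrates, 1 had a log2 ratio above 2 and 3 were below -2, with a median of 0.09, beside the same shares of all entries. After centring or quantile normalization 2 were above 2, the second being MBP, a myelin protein. IGFBP3, an IGF-binding protein cleaved by prostate-specific antigen, had 62.5 RPKM in VCaP against 0.739 RPKM in VCaP ERα (log2 ratio -5.19). CDSN, the corneodesmosin cleaved by KLK5 and KLK7 in the skin, had 9.82 and 0.425 RPKM, and FN1 (fibronectin) had 5.65 and 0.0723 RPKM in VCaP and VCaP ERα. F2RL1, the protease-activated receptor that several kallikreins cleave, was the substrate above the threshold without scaling, with 2.85 RPKM in VCaP against 20.7 RPKM in VCaP ERα. Between the thresholds without scaling, APP had 91.3 and 36.0 RPKM, MBP had 1.94 and 7.14 RPKM, PLAUR had 2.46 and 0.548 RPKM and F2R had 0.204 and 1.5 RPKM in VCaP and VCaP ERα. The semenogelins SEMG1 and SEMG2, the main seminal substrates of prostate-specific antigen, share 1 entry, which was listed at 0 in VCaP and had 0.0657 RPKM in VCaP ERα. That entry was counted once for each gene among the 15, and its log2 ratio is the median of the list. The remaining 5 genes were below 1 RPKM in both libraries.

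**Figure D5:**
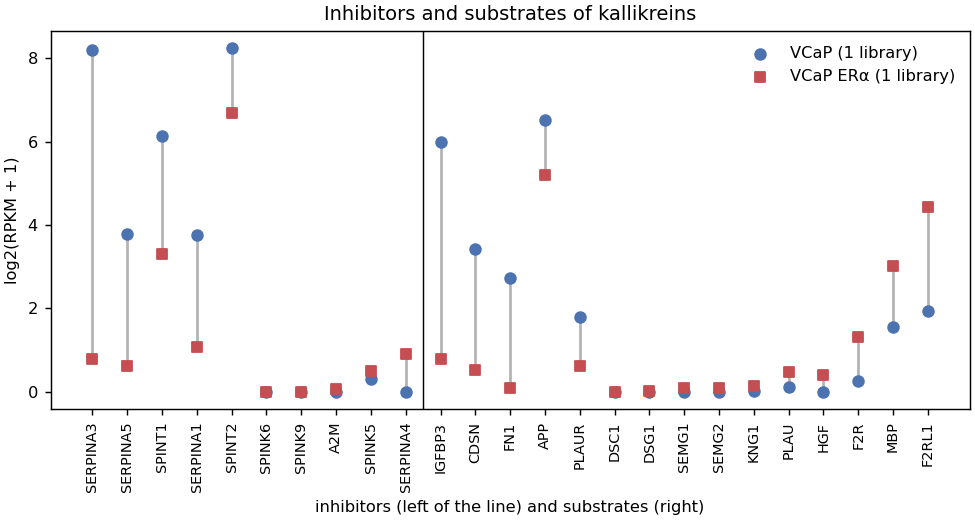
Levels of 10 inhibitors (left of the line) and 15 substrates (right) as log2(RPKM + 1) in the VCaP library (circles) and the VCaP ERα library (squares), each group sorted by log2 ratio, with 1 library per culture and no error bar. SERPINA3 and IGFBP3 are the genes of each group with the longest distance downward from VCaP to VCaP ERα, and F2RL1 is the substrate with the longest distance upward.

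The entries whose pair of values was closest to that of KLK2 were LDHB (0.455 and 462 RPKM in VCaP and VCaP ERα), RPS4Y1, a ribosomal protein gene of chromosome Y (0.0842 and 261 RPKM), and STEAP2 (0.0782 and 229 RPKM), at distances of 0.50, 0.80 and 0.98 in the plane of log2(RPKM + 1). Among those closest to KLK11 were CLMN (22.5 and 0.70 RPKM) and MUC1 (20.8 and 0.780 RPKM), at distances of 0.06 and 0.13. The likeness rests on the 2 values of each entry.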

How the data were processed

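RNA of VCaP and VCaP ERα cells was sequenced in 1 library each, and these 2 of the 4 libraries of the series were used. The authors computed and deposited RPKM values for known-gene entries, with no normalization between libraries stated. The submitters' processing notes name CASAVA 1.8 and the build hg18 besides mm10; the aligner and the counting program are not given in the sources used here. The files give no strand, exon length or read total, so no interval was computed, and a human genome was not used here.

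For each symbol the entry of highest mean RPKM was taken; all 10 members had 1 entry. Log2 ratios used a pseudocount of 1 and a threshold of 2 or -2, without a filter and without a test. The members and lists were chosen with earlier results of these data known. Named were the members, list genes of at least 1 RPKM in either library or of largest log2 ratio, entries of the cluster with the nearest entry on either side, and the 3 entries nearest to the highest and lowest member, of which 1 is not reported here. HOXB13, FOLH1, MSMB, SPDEF, KRT5, KRT14, CD33, SIGLEC9, C19orf48, SNORD88C, and the low genes KLK9, KLK13, KLK14, KLKB1, SPINK5, SERPINA4, A2M, SEMG1 and SEMG2 were named after their values were seen. Units were read as the commonest products of RPKM and span, and multiples were matched within 0.0003.

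The members' log2 ratios, counts and median were recomputed with quantile normalization, with centring, with a pseudocount of 0.1, with a filter at 1 RPKM in either library, with the mean over a symbol's entries and, as an alternative added after the data were seen, with scaling by the units. Their sum and the cluster were recomputed with centring and quantile normalization, and, as a later addition, the gene lists and flanking entries with all of these but the filter and the mean. The scripts were tested on simulated data. The software was matplotlib 3.10.9, numpy 2.4.6, pandas 2.3.3 and Python 3.11.15.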

Additional observations from a re-analysis of the deposited data

How the results depend on the processing

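The number of kallikreins above 2 was 3 under every alternative except the pseudocount of 0.1, where KLK1 made it 4, and the number below -2 was 2 under all of them. Over all entries the pseudocount of 0.1 gave 4238 above 2 and 2958 below -2, against 588 and 1701. The median log2 ratio of the members was 2.62 with only the 6 members of at least 1 RPKM in 1 library, because low members near 0 were left out, and 0.79 after centring, against 0.20. The log2 ratio of the summed RPKM, taken without adding 1, was 4.13 after centring and 1.59 without the highest member of each library, against 3.54. Of the 16 cluster entries, 13 were higher in VCaP ERα, and 7 after quantile normalization. For the 20 flanking entries these counts were 17 and 14. The share of all entries higher after quantile normalization is not given here, so the counts of 7 and 14 lack that background. Centring moved every member by 0.59 by construction, which exceeds the tolerance of 0.58 for a log2 ratio, and the pseudocount of 0.1 moved 7 of the 10 by more than that; the mean over entries changed none, as each symbol has 1 entry. In the gene lists, centring changed the calls of KLK15, MBP, 1 breast gene and 2 squamous or basal genes. With the pseudocount of 0.1, 2 other kallikreins, 1 inhibitor and 3 substrates were above 2, against 0, 0 and 1, and 8 of the 20 flanking entries were, against 1. The squamous or basal genes KRT5 and KRT14 were then above 2 as well, which made 2 of that list against 0. No paired analysis was possible because each group holds 1 library. Members under 1 RPKM in both libraries are limited by depth.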

Other observations

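Just below the cluster, C19orf48 had 56.1 RPKM in VCaP against 207 RPKM in VCaP ERα (log2 ratio 1.87). The small nucleolar RNA SNORD88C, whose entry lies inside that of C19orf48, had 0.500 RPKM in VCaP against 8.37 RPKM in VCaP ERα, and was the one entry of the 20 flanking ones with a log2 ratio above 2 without scaling; C19orf48 also passed it after centring (2.46) or quantile normalization (2.37).

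The steps in the low values formed 2 series in each library, with units in a ratio of 1.5 in VCaP and of 1.17 in VCaP ERα. Of the 88 short entries placed in 1 series in both libraries, 87 were in the low series of both (51) or in the high series of both (36). Most short entries were in neither series. In VCaP, 157 and 124 of 915 short entries with a low product lay on multiples of the low or the high unit alone. In VCaP ERα these were 239 and 248 of 2171. If 1 unit is 1 fragment in either series, equal RPKM values of the 2 series stood for different numbers of fragments in the same library. That reading of the units was not tested. The files do not show whether each kallikrein follows either series. If all of them do, their levels are comparable with one another within these factors. What sets the series apart was not tested.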
